A study of Mus musculus with 5 samples.

Results

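The array design used for these tumour cells held 16194 probes that were named by a genomic interval, out of 55681 probes outside the controls. They were chosen by name alone: the name gave a chromosome, a start and an end in place of an accession. No gene symbol came with them, and the other 39487 probes carried accessions. The names fell on 3543 intervals of 20 chromosomes, in coordinates of the mouse build mm9 per the file headers. A suffix gave the strand, F or R: 1067 intervals were named on both strands, 2473 on 1 strand, and 3 had no strand in the name. Strand F held 8171 probes and strand R 8010. Intervals were between 62 and 7128487 bp long, with quartiles of 786, 7304 and 21807 bp, and 135 of them exceeded 100000 bp. The longest, chr7:39351858-46480344, was the 1 interval over 1000000 bp. Whether each interval lies between genes was not checked, because no annotation of mm9 was used here, so the label intergenic rests on the design. Each probe had 1 spot per array. A strand-specific name carried between 1 and 10 probes, with a median of 3, and 690 of 4610 names carried a single probe. Probes of 1 name are called companions here. They read the same interval on the same array and are not replicates of a condition.

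The 5 arrays measured total RNA of tumour cell lines from soft tissue sarcomas of mice whose background mixed C57/BL6 with 129 and ICR. All of these lines carry EWS/ATF1 alleles that doxycycline induces. The fusion joins EWS to the DNA-binding protein ATF1 and drives clear cell sarcoma in people. The arrays, 1 per group, were a 3 h control, a 3 h low dose, a 3 h high dose, a 48 h control and a 48 h high dose of doxycycline. The sources used here give neither the doses nor the tumour line behind each array, and do not say whether the controls received doxycycline. With 1 array a group, no difference between arrays has a replicate check, and a difference between lines cannot be told apart from one of dose or time.

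Much of the mammalian genome outside protein-coding genes is transcribed, and some of it gives long noncoding RNAs. These RNAs are often scarce and limited to few cell types, some are nuclear and act on chromatin, and many run antisense to or close beside another gene. Array makers placed several probes along such candidate intervals, often on both strands, so that transcription could be read where no transcript had yet been named. A probe of this kind reports RNA that binds its letters, and says nothing of where the transcript begins or ends.

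All arrays lay on 1 slide, no spot was saturated, and the 75th percentile of signal was between 420 and 725 intensity units. Levels below are log2 processed signals relative to that percentile, which is 0 on each array. Fos, the gene in the study's title, had levels of -2.22, -0.49, 2.18, -2.22 and 2.86 in the order of arrays given above. Of 6 neural crest and melanocyte genes, 5 to 6 were well above background on each array, as were all 5 mesenchymal genes. Of 4 epithelial genes, 2 were above background on the 3 h high dose, 1 on the 48 h control and 0 on the other arrays. Of 9 macrophage genes, 7, 8, 4, 4 and 8 were above background. The lysosomal protease gene Ctss stood at -0.78, -0.87, -4.79, -4.67 and 1.43. The 3 h control and low dose thus differed in it from the 3 h high dose and 48 h control. Tyrobp, Lyz2 and C1qc were above background on the former arrays and not on the latter. Csf1r, the brightest of the list, did not share this split, at 2.55, 2.52, 2.65, 2.89 and 5.30. Nor did Adgre1, at -4.64, -4.77, -4.90, -4.38 and -3.78. C1qb differed little, at -2.85, -2.95, -3.32, -3.62 and -2.21. The median of 5 cell cycle genes was between -3.79 and -2.94 on 4 arrays and 2.39 on the 48 h high dose array. The part of these genes in the differences below was not tested.

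Between 37.4% and 44.3% of the interval probes gave a signal that the extraction software marked as well above background. Its weaker mark, of a positive and significant signal, held 61.8% to 69.6%. The shares were 37.4% on the 3 h control (exact binomial 95% interval 36.7 to 38.2), 44.3% on the 3 h low dose (43.6 to 45.1), 44.0% on the 3 h high dose (43.3 to 44.8), 44.2% on the 48 h control (43.4 to 44.9) and 37.4% on the 48 h high dose (36.7 to 38.2). These intervals cover counting error over probes only. They treat probes as independent, though companions read the same interval, so they can be too narrow. Without replicate arrays they cannot decide whether groups differ. The shares on the first and last arrays were lower than those on the other 3. Shares of the accession-named probes were also lower on the first and last arrays, at 63.0% and 62.9% against 66.2% to 66.5%. A total of 7898 interval probes (48.8%) were above background on no array and 5268 (32.5%) on all 5, against 29.0% and 59.3% of the other probes. Detected interval probes were also dim: their median level was between -3.40 and -2.89 across arrays, while that of the detected other probes was between -0.23 and 0.04. In bulk RNA, fewer cells with a transcript and less of it per cell cannot be told apart.

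**Figure D1:**
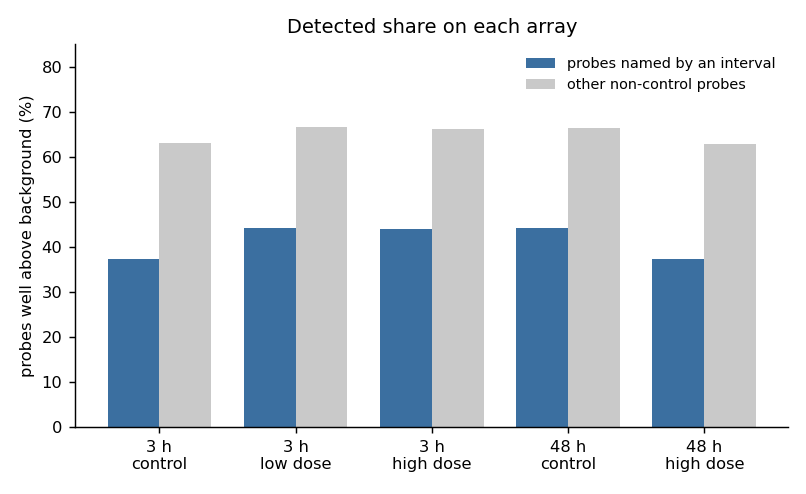
Percentage of probes marked well above background on each of the 5 arrays, for the 16194 interval probes (blue) and the 39487 other probes (grey). The blue bars reach 37.4% to 44.3% and the grey bars 62.9% to 66.5%, and both are lowest on the 3 h control and the 48 h high dose.

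Detection was seldom complete within a name. At least 1 probe was above background on all 5 arrays for 2663 of 4610 names, and 1008 names had none above background on any array. Of 3920 names with 2 or more probes, 469 had all of them above background on all 5 arrays, and 700 had none above background on any. Probes of intervals under 1000 bp were detected least, at 31.7% to 38.9% by array, and those of intervals of 1000 bp to just under 10000 bp most, at 38.9% to 47.1%. On all 5 arrays, 31.5% of strand F probes and 33.6% of strand R probes were above background. Among the 1067 intervals named on both strands, 480 had a probe of each strand above background on all arrays, 216 had strand F only, 225 had strand R only and 146 had neither. Probes seen on some arrays only were most often those missing from the 48 h high dose (501) or from both the 3 h control and the 48 h high dose (331), the 2 arrays with the lower detected share.

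Differences of 2-fold or more were counted among probes well above background on both arrays compared. For the high dose at 3 h against the 3 h control, 96 of 5874 interval probes were higher (1.63%) and 74 lower (1.26%). Over all 30399 probes tested, 1.8% were higher and 1.32% lower. For the low dose at 3 h, 31 of 5912 were higher and 54 lower, where all probes gave 0.664% and 0.694%. Between the high and the low dose at 3 h, 77 of 6641 were higher and 34 lower, where all probes gave 1.23% and 0.711%. The shares of interval probes lay near those of all probes in each of these comparisons. The low and high dose comparisons share the 3 h control array.

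The 48 h high dose array differed far more. Against the 48 h control, 469 of 5681 interval probes were 2-fold higher (8.26%) and 506 lower (8.91%), and over all probes 9.66% were higher and 9.1% lower. Between the 2 high dose arrays, 373 of 5750 were higher at 48 h (6.49%) and 314 lower (5.46%), below the 8.37% and 7.05% of all probes. The 2 control arrays differed by 148 higher and 61 lower of 5870 at 48 h, where all probes gave 2.23% and 1.2%. The middle of the distribution moved little: the median log2 difference of interval probes was 0.21 for the high dose at 48 h and between -0.01 and 0.17 in the other comparisons. The extraction software's own error of a difference had a median of 0.223 to 0.225 log2. The split between higher and lower depended on the scaling in some comparisons. The high dose at 3 h gave 64 higher and 106 lower after centring on the median, and 71 and 96 after quantile normalisation. For the 2 control arrays it was 97 and 90, and 107 and 77, under the same settings. Median centring shifted the median of all probes by -0.12 and -0.14 in these comparisons. Between the high and the low dose, normexp left 33 higher and 5 lower, and between the controls 32 and 22. Which side was larger also turned elsewhere. Between the high dose arrays it went to 305 higher and 376 lower with the percentile taken over probes detected on all arrays. With the high dose at 48 h it went to 508 and 489 with median centring and to 207 and 164 with normexp. Against the 48 h control the high dose at 3 h gave 92 higher and 187 lower, and without the filter on dim probes the low dose gave 688 and 473. With normexp background correction, which draws dim probes together, the calls in both directions were 54 for the high dose at 3 h, 36 for the low dose, 38 between doses, 371 for the high dose at 48 h, 54 between controls and 242 between high dose arrays, fewer in each than the 170, 85, 111, 975, 209 and 687 above.

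**Figure D2:**
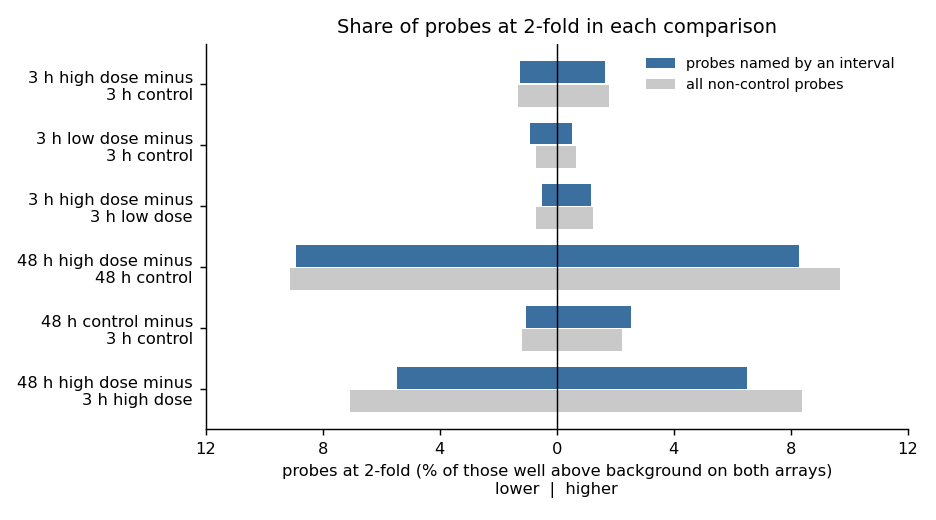
Percentage of probes at 2-fold in each of the 6 comparisons, lower to the left and higher to the right of 0, for interval probes (blue) and all non-control probes (grey). The 2 comparisons with the 48 h high dose array reach between 5.46% and 9.66% on each side, and the other 4 stay at or under 2.52%.

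Companion probes give a check on a single spot. At 48 h of the high dose, 771 probes at 2-fold had a companion above background on both arrays, and for 90.0% of them the companions' median had the same sign. In 67.2% another probe of the name was also at 2-fold. For the high dose at 3 h, 132 probes had such companions, with the same sign in 74.2% and another at 2-fold in 35.6%. The other probes gave 90.4% and 64.9% at 48 h, and 89.6% and 55.7% for the high dose at 3 h, so the interval probes had lower shares at 3 h and near ones at 48 h. For the low dose, 29 of 58 shared the sign and 17.2% had another at 2-fold, where the other probes gave 81.0% and 25.3%. The 2 control arrays gave 86.4% and 40.8% of 169, where the other probes gave 88.0% and 53.3%. These differences between probe kinds were not tested. Probes with differences of 8-fold or more fared differently at the 2 times. Of 17 such probes for the high dose at 3 h, 9 had companions, 0 of these had another at 2-fold, and the companions' median difference, taken in the probe's own direction, was -0.01. Of 29 at 48 h, 15 had companions, 9 had another at 2-fold, and that median was 1.94. The counts at 8-fold were not made for the other probes, so they do not set interval probes apart from them.

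**Figure D3:**
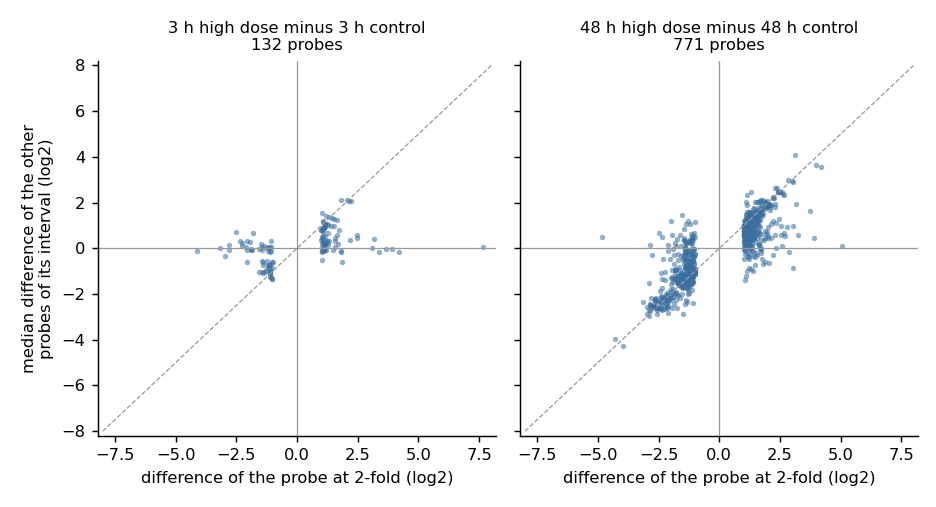
Each point is an interval probe at 2-fold with companions above background on both arrays; x is its log2 difference and y the median log2 difference of its companions, with the dashed line marking equal values. Among the 132 points at 3 h those of 8-fold or more lie near y = 0, and among the 771 at 48 h 90.0% lie on the same side of 0 in both directions.

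Whole intervals were then read at 3 h. Of 1470 names with at least 2 probes tested for the high dose, 5 had every tested probe 2-fold higher and 2 had every one lower. The shares over all 5076 names with as many probes, accessions included, were 0.591% and 0.414%. The largest was chr2:94046243-94070067 on strand R. Its 5 probes were at -5.34 to -3.34 on the 3 h control, -3.36 to -1.36 on the low dose, -3.50 to -1.27 on the high dose and -5.80 to -4.32 on the 48 h control, and from -7.09 to -5.03, with none above background, on the 48 h high dose. Both 3 h doxycycline arrays were therefore above both controls for every probe of this interval. The lowest readings on the controls were under the dimmest level above background there, -5.18 at 3 h and -5.45 at 48 h. For those readings the order rests on background. In normexp-corrected values the difference of A_30_P01020946, from this interval, was 1.21 in place of 2.24 for the high dose and 0.90 in place of 1.83 for the low dose, the latter under 2-fold. The 4 probes tested gave a median difference of 2.11 log2 (range 1.82 to 2.24, 4.3-fold) for the high dose and 1.91 (1.76 to 2.21, 3.75-fold) for the low dose. The low dose had this 1 interval alone among 1474 names, where all names gave 0.196% in either direction. A neighbour on the same strand, chr2:94082835-94101939, had 4 probes tested with median differences of -0.21 and 0.34, and none was at 2-fold.

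The other 4 that were higher at 3 h had smaller differences. The 3 probes of chrX:50407969-50410370, strand R, had a median level of -4.02, -3.74, -2.72, -4.69 and -4.39 in array order, so the high dose at 3 h stood alone above the other 4 arrays. Their differences from the 3 h control were 1.20 at least, with a median of 1.34, and at 48 h of the high dose the median difference was 0.79. For chr3:51804655-51805883, strand R, the 3 probes were 1.04 to 1.63 higher with the high dose, 0.34 to 1.21 higher with the low dose, and also 1.18 to 1.55 higher on the 48 h control than on the 3 h control. In this interval, as in chr9:121256738-121257487 on strand F (2 probes, 1.07 and 1.15), the 3 h control was low, and the 48 h high dose was low too. At 48 h the high dose was lower than its control in both, by 1.18 in the 1 of 3 probes tested on chr3 and by 1.32 and 1.59 on chr9. The last was chr17:12965849-12968519 on strand F, with 2 probes at 1.08 and 1.22.

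Lower at 3 h were chr10:39666719-39679959 on strand R and chr6:3283191-3284581 on strand R. The 3 probes of the first had a median level of -2.10, -3.20, -3.21, -1.45 and -3.42. The high dose was lower at both times, by 1.06 to 1.40 at 3 h and by 1.96 to 2.19 at 48 h, and the low dose array was near the high one. A further interval, chr6:129151512-129208737 on strand R, had 5 of 6 tested probes lower at 3 h (median -1.18) and 3 of 3 lower at 48 h (median -2.85), with a median of -0.19 over 8 probes for the low dose. Only 3 of its 10 probes were above background on the 48 h high dose, against 8 on each control. Between the high and the low dose, 2 of 1678 names had every tested probe at 2-fold, where all names gave 0.5%. They were chr14:105988692-105994145 on strand F (median -1.10) and chr6:57583950-57624216 on strand R.

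The largest differences at 3 h came from single probes. A_30_P01032305, on chr8:48476637-48492537 strand F, was at -0.85, 0.37, 6.82, 7.02 and 6.16. It was low on the 3 h control and low dose and high on the other 3 arrays. The difference for the high dose at 3 h was 7.67 log2 (extraction error 0.205, 204-fold), and the 1 companion above background differed by 0.08. A_30_P01018760, on chr15:79764481-79809909 strand R, was at 1.04, -5.27, 1.03, 1.40 and 1.27, so that the low dose array alone was low, with a difference of -6.31 (error 0.31). Its companion there differed by 0.22. A_30_P01029432, the single probe of chr12:89519675-89533975 on strand R, was at -4.63, -4.23, 0.71, -4.17 and -3.83, and was high on the 3 h high dose only.

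Others stood apart on the 3 h control. A_30_P01022945, on chrX:93157194-93160542 strand R, was at 0.96 there and between -3.92 and -3.72 on the other 4 arrays. In the same way, A_30_P01023982, on chr6:90745692-90777977 strand F, was at -0.65 there and between -4.92 and -3.95 elsewhere. Their differences for the high dose at 3 h were -4.74 and -4.11. For the counts that follow, a probe had to be above background only on the array where it stood high. Its other levels can be background readings, so these folds can rest on background. On the 3 h control array 46 interval probes stood at least 8-fold above each other array, and on the 3 h high dose array 50. These were 0.284% and 0.309% of interval probes, against 0.167% and 0.19% of the other probes. On the 48 h high dose array it was 66 (0.408%), against 1.01% of the others. With a companion detected were 25 and 27 of those on the 3 h arrays, and the companion did the same for 0 and 2. The 2 on the high dose array were the probes of chr6:57583950-57624216 named above: A_30_P01018494 was at 0.64 there and between -5.02 and -4.41 on the 48 h high dose and on the other 3 h arrays, and A_30_P01023436 was at -4.98, -4.71, -1.38, -4.73 and -5.55. The other 2 probes of that interval were at or under -5.45 on every array.

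The high dose array at 3 h was also set against both controls. Of 5796 interval probes above background on all 3 arrays, 94 were 2-fold higher than the 3 h control and 68 lower. Of the same 5796, 40 were 2-fold higher than both controls and 24 lower than both. Over all 30211 probes, 250 were higher than both (0.828%) and 115 lower than both (0.381%). A_30_P01023737, the single probe of chr13:21856097-21859200 on strand R, was among the 40 higher ones. It was at 3.05, 3.88, 6.69, 3.71 and 9.24, above every control at both times. The difference was 3.64 at 3 h (error 0.204, 12.4-fold) and 5.53 at 48 h (46.1-fold), and with 1 probe no companion could be read. A_30_P01031408, on chr8:67552315-67561235 strand R, was also highest on the 2 high dose arrays, at -0.97, -1.20, 1.28, -0.78 and 2.76, but its low dose array was the lowest, where for A_30_P01023737 it lay above both controls. An overlapping name on that strand, chr8:67550064-67560987, had its single probe A_30_P01033125 at -4.09, -4.60, -2.66, -3.93 and -1.09, again highest on the 2 high dose arrays.

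**Figure D4:**
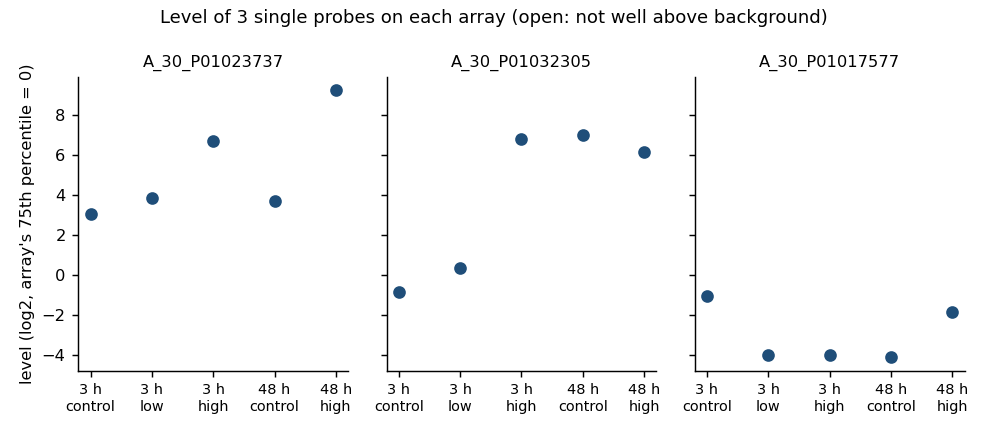
Level on each array (log2, 75th percentile = 0) of A_30_P01023737, A_30_P01032305 and A_30_P01017577. The first is highest on the 3 h (6.69) and 48 h (9.24) high dose arrays, the second is low on the 3 h control and low dose arrays only, and the third is high on the 3 h control (-1.02) and the 48 h high dose (-1.83).

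At 48 h of the high dose, 118 of 1416 names were at 2-fold as a whole: every tested probe was 2-fold higher in 37 names and lower in 81. The shares over all names were 5.08% and 5.38%. The largest difference among the higher ones was on chr5:73771801-73772662, strand F, whose 3 probes sit within 862 bp. A_30_P01018547 was at -0.60, -0.60, -0.57, -0.62 and 3.56, A_30_P01028946 at -3.47, -3.24, -2.82, -3.14 and 0.86, and A_30_P01024960 at -3.35, -3.53, -3.67, -3.15 and -0.01. All 3 lay within 0.65 log2 across 4 arrays and were high on the last, by 3.13 to 4.17. On chr17:34018371-34019394, strand R, 3 probes were 2.82 to 3.02 higher, from a median level of -3.42 on the 48 h control to -0.44. The 5 probes of chr9:14460976-14488051, strand F, had a median level of -1.31, -1.20, -1.21, -1.17 and 1.40, and each was between 2.40 and 2.57 higher (5.54-fold at the median). The 3 probes of chr13:34027900-34052050, strand F, were 2.21 to 2.23 higher, from a median of 0.86 to 3.09.

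The interval chr4:124127144-124334840 on strand R, 207697 bp long, shows how a single spot can part from its companions. At 48 h its 4 tested probes were all higher with the high dose, by 1.67 to 2.28. At 3 h one of them, A_30_P01017577, was 2.97 lower (error 0.241) while the median over the 4 was -0.34. That probe was at -1.02 on the 3 h control and between -4.11 and -3.97 on the next 3 arrays.

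Lower intervals at 48 h included several that were among the brighter ones. The 10 probes of chr17:26911397-26917047, strand F, had a median level between 1.82 and 2.26 on the first 4 arrays and of -0.01 on the last. Each of the 10 was lower on the 48 h high dose, by 1.79 to 2.33 (4.71-fold at the median), and none was at 2-fold at 3 h, where the median difference was -0.25. The 5 probes of chr3:90425270-90435820, strand F, had a median of 1.38, 1.16, 0.87, 1.27 and -0.41, and were lower by 1.62 to 2.40. At 3 h of the high dose all 5 were lower by 0.41 to 0.53, short of 2-fold. On chr16:23992037-24001037, strand F, 5 of 5 tested probes were lower by 1.74 to 2.65, and on chr3:21964899-21974524, strand R, 4 of 4 by 1.42 to 3.14. The probes of chr2:78767440-78768949, strand F, had a median level of -2.07 on the 48 h control and -4.76 on the 48 h high dose, where 2 of 3 were above background, and those 2 were lower by 2.54 and 2.70. The cell cycle genes given above also stood apart on this array. Of the 6 neural crest genes, Ngfr was at 4.25 on the 48 h control and -2.20 on the 48 h high dose, Mitf at 2.64 and 2.97, Tyr at -3.49 and -3.14, Sox10 at -2.07 and -2.28, Pmel at -1.40 and -2.02, and Mlana at -4.84 and -6.65. The part of these genes in the differences was not tested.

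Neighbouring intervals were grouped into runs wherever they lay within 100 kb of each other on either strand. The runs named here were chosen after their values were seen. Of 1575 runs, 11 had at least 5 probes that were 2-fold higher for the high dose at 48 h, and 25 had at least 5 that were lower. At 3 h of that dose, 0 runs had 5 higher and 2 had 5 lower, on chromosomes 6 and 10. Runs with more probes reach 5 more readily, and at 48 h 8.26% of all tested interval probes were higher and 8.91% lower. Accession-named probes were not grouped into runs, so no share over all probes stands beside these counts. Whether calls cluster in runs was not tested.

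The largest run lay on chr12:110653148-111080561, with 83 probes of 19 names on 14 intervals. At 48 h, 36 of its 44 tested probes were 2-fold higher with the high dose and 0 lower, with a median of 1.61 (1.02 with normexp) and a range of 0.09 to 2.68. The 36 came from 12 names and both strands, 28 of 31 tested on strand F, and made up 7.68% of all 469 higher interval probes. On chromosome 12 as a whole 61 of 280 probes were higher and 15 lower. Over the 42 probes of the run above background on all arrays, the median relative to the 3 h control was 0.04 on the low dose, -0.15 on the high dose at 3 h, -0.78 on the 48 h control and 0.79 on the 48 h high dose. The 48 h control was thus the lowest array and the 48 h high dose the highest. Between the controls 12 of 42 tested probes were 2-fold lower at 48 h, and between the high dose arrays 23 of 48 were higher at 48 h.

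Inside that run, chr12:110944403-110988678 carried 10 probes on each strand. All 10 of strand F were above background on every array, with medians of -3.09, -3.24, -3.22, -3.93 and -2.16. Their differences at 48 h ran from 1.11 to 2.12, with a median of 1.95 (3.87-fold). One of them, A_30_P01021613, was at -0.39, -0.82, -0.60, -1.67 and 0.45, lowest on the 48 h control. On strand R, 5 of 10 probes could be tested at 48 h, and all 5 were higher, by 1.14 to 1.97. Both strands of this interval were therefore higher.

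A run on chr16:43623175-43642715 went the opposite way. It held 26 probes of 4 names. Its longest name, chr16:43623581-43642715 on strand F, had 10 probes with a median level of -1.04, -0.61, -0.38, 0.26 and -2.22. The 48 h control was the highest array and the 48 h high dose the lowest. All 10 were higher on the 48 h control than on the 3 h control, by 1.02 to 1.90, and all 9 tested were lower with the high dose at 48 h, by 2.40 to 2.98 (6.04-fold at the median). Both overlapping strand F names gave like values: the 3 probes of chr16:43635730-43639104 were lower by 2.37 to 2.74, and the 3 of chr16:43623175-43624069 by 2.55 to 2.64. For the high dose at 3 h the 10 probes were higher by 0.57 to 1.28, with 1 at 2-fold.

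**Figure D5:**
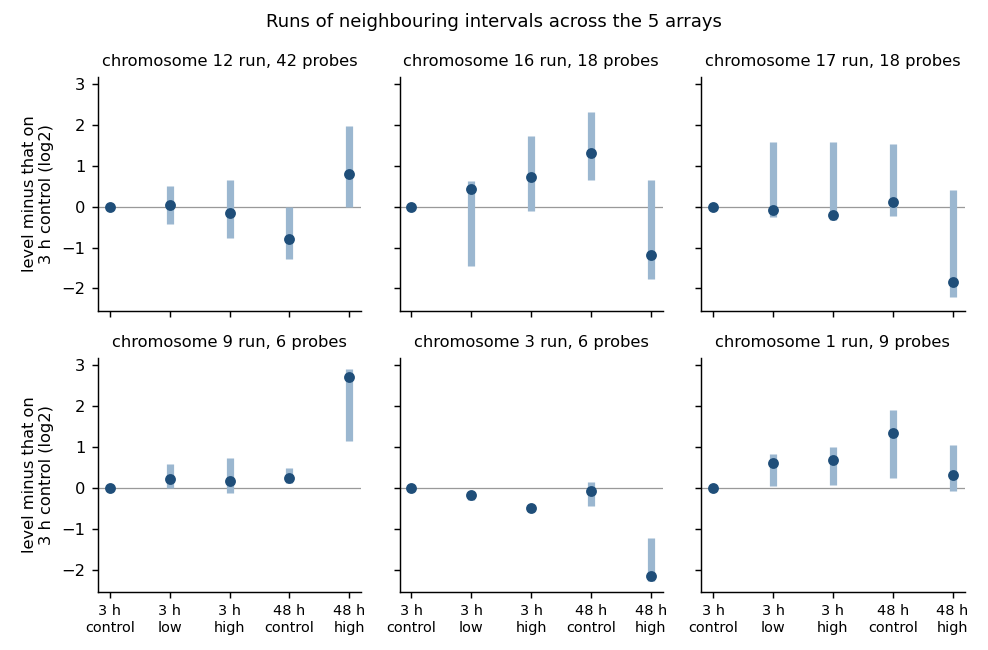
Level relative to the 3 h control (log2) on each array for 6 runs of neighbouring intervals; dots are medians over the probes above background on all arrays and bars their full range. The chromosome 12 run is lowest on the 48 h control (-0.78) and highest on the 48 h high dose (0.79), and the chromosome 16 run is highest on the 48 h control (1.31) and lowest on the 48 h high dose (-1.18).

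Further runs were one-sided. On chr14:26834450-26847000, 10 of 13 tested probes were higher with the high dose at 48 h (median 1.43) and 0 lower. The run on chr17:26911032-27024356, which holds the 10-probe interval described above, had 15 of 18 lower (median -1.92). On chr2:127988295-128250301, 8 of 11 were lower, and on chr3:90425270-90435820, 5 of 6. The run on chr1:175653557-175717250 had 7 of 10 tested probes higher on the 48 h control than on the 3 h control, and 8 of 13 lower with the high dose at 48 h (median -1.09). Its median relative to the 3 h control was 0.61, 0.68, 1.34 and 0.30 on the other arrays.

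Pairs of names were also compared. Of 676 overlapping pairs on the same strand that could be tested at 48 h, 172 had a name at 2-fold and 41 had both, 36 of them in the same direction. Of 798 pairs within 100 kb that did not overlap, 259 had 1 or both at 2-fold and 47 had both, 45 in the same direction. Across pairs the correlation of the 2 names' differences was 0.445 for overlapping and 0.288 for non-overlapping pairs. Overlapping names can share transcripts and, in part, target sequence, and pairs are not independent of each other. Strands of 1 interval were compared too. At 48 h, of 545 intervals tested on both strands, 105 had a strand at 2-fold, 15 had both, and these went the same way in 11 and opposite ways in 4, with a correlation of 0.162 across intervals. At 3 h of the high dose the correlations were 0.287 for overlapping pairs, 0.069 for non-overlapping pairs and 0.128 for strands, so strands did not come last there. None of these was tested against another, or against the shared calls that the 48 h call rate alone would give. Of single interval probes tested at 48 h, 17.2% were at 2-fold. Accession names give no interval, so no share over all probes stands beside these counts.

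Among names with at least 2 probes tested, the controls differed most on chr9:78107225-78118850, strand F. The largest difference of a single probe was that of A_30_P01032305, at 7.86. A_30_P01018914 was at -4.11, -4.10, -5.00, 1.06 and -3.21, and A_30_P01028766 at -3.69, -3.39, -4.06, 1.53 and -2.43. Both were high on the 48 h control only, by 5.18 and 5.22 over the 3 h control, and were lower by 4.28 and 3.96 with the high dose at 48 h. The other 3 probes of the name were not above background on any array. An overlapping name on the same strand, chr9:78104935-78116974, had its single probe A_30_P01020518 at -3.29, -3.17, -3.48, 0.86 and -2.81, the same order. In all, 11 of 1463 names had every tested probe at 2-fold between the controls, where all names gave 1.08%. Between the 2 high dose arrays the count was 74 of 1432, where all names gave 8.61%.

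The high dose was read at both times in 5282 interval probes above background on all 4 arrays. Of these 33 were 2-fold to the same side of the control at 3 h and 48 h (0.625%), 19 higher and 14 lower, and 14 to opposite sides (0.265%). All 28704 probes gave 0.902% and 0.376%.

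Some differences had only a bound, because a probe was not well above background on 1 of the 2 arrays. The bound sets the brighter array against the dimmest level that was above background on the other, or the probe's own level there if higher. For the high dose at 48 h, 202 of 381 interval probes detected on that array only were at least 2-fold higher in this sense (53.0%), and 377 of 1470 detected on the control only were lower (25.6%). All probes gave 65.5% and 32.3%. At 3 h, 130 of 1259 were higher (10.3%) and 89 of 186 lower (47.8%), where all probes gave 12.2% and 51.9%. The interval probes lay below all probes in each of these shares, and the difference was not tested. A_30_P01031612, on chr11:18753941-18760118 strand R, was at -7.30, -7.72, -0.67, -7.67 and 0.49. It was detected on the 2 high dose arrays only, at least 61.3-fold above the 48 h control. A_30_P01032958, on chr11:31643114-31643595 strand F, was detected on the 3 h high dose array alone, at 0.67, at least 57.5-fold above the 3 h control. In the other direction, A_30_P01021549 on chr12:52944867-52971992, strand F, was detected on the 3 h control alone, at 2.23, and was at least 213-fold lower on the 3 h high dose. At 48 h, A_30_P01027801 on chr6:86477309-86537554, strand F, was at -0.74, -0.52, -0.69 and -0.79 on the first 4 arrays and at least 22.4-fold lower on the 48 h high dose.

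A test across arrays was possible only in an additive model of time and high dose over 4 arrays, with 1 residual degree of freedom. In that model an effect of the high dose at 1 time only counts as error. The counts below therefore cannot decide on such effects. In limma with Benjamini-Hochberg adjustment over 32857 probes, 0 of 6902 interval probes passed an adjusted p of 0.05 for the high dose and 0 for time, and 0% of all probes did for either term. At an unadjusted p under 0.05 there were 214 interval probes for the high dose (3.1%) and 85 for time (1.23%), where all probes gave 4.29% and 2.45%. Without the filter on dim probes, 251 (1.55%) and 140 (0.865%) passed the adjusted p in limma, where all probes gave 3.09% and 2.07%. With normexp background correction 4 and 0 passed, where all probes gave 0.0852% and 0%. The filter kept probes that were above background on 2 arrays only, so some fitted differences rest on background readings and none is given here.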

How the data were processed

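The deposited scanner files hold spot intensities on a linear scale, read in 1 colour per the file headers with Agilent Feature Extraction 10.7.3.1 per the submitters' processing notes. That software subtracted background and detrended each array, per the file headers, and from the values no scaling between arrays is visible. The deposited value table matched these intensities within 0.001 log2 for 100.0% of interval probes, so it is linear and not centred, and its medians for them were 23.9 to 38.3. Its direction is that of signal. Labels give Cy3-labelled total RNA, and 1 array per group.

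Of 59305 spots outside the controls per array, 111 to 146 marked as outliers were left out. Signals were taken to log2 and each array's 75th percentile subtracted. A probe was detected where its spot carried the software's mark for a signal well above background. Interval names were read by pattern, and 2-fold means a log2 difference of 1 among probes detected on both arrays. Errors are those of the extraction software, since 1 array a group gives no other. The number of arrays limits the precision. limma 3.58.1 (R 4.3.3) fitted time and high dose with eBayes trend over probes detected on at least 2 of 4 arrays. Tables used Python 3.11.15, pandas 2.3.3 and scipy 1.17.1. On simulated data for the high dose term over 32857 probes, the limma step recovered 64.2%, 83.6% and 81.8% of effects of 4, 6 and 8 log2, with 17 false calls. The effects simulated for limma were the same at both times, so its recovery does not cover an effect at 1 time only. On simulated data the 2-fold step over 5874 probes recovered 94.0% at 1.5 log2, with 2 false calls. Without replicate arrays the spread between arrays is not known, so this recovery may not hold for it.

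Alternatives were median centring, the percentile over probes detected on all arrays, quantile normalisation, normexp with an offset of 50, the value table, other filters, 1 probe per name and the other control array. The files held median and not mean spot signals, so normexp used the median spot and background signals. Named probes were the 10 largest in each direction for the high dose at each time, the 5 largest elsewhere, the 3 largest bounds, the 10 intervals with the largest mean size of difference and at least 2 probes at 2-fold, and the 10 largest against both controls or at both times, with their companions. Runs and names whose tested probes all passed 2-fold were added later. The members and lists were chosen with earlier results of these data known. Probe sequences were not used here.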

Additional observations from a re-analysis of the deposited data

Results flagged for a closer look

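For 14 of 5282 interval probes (0.265%) the high dose stood 2-fold or more to opposite sides of the control at 3 h and at 48 h, where 33 stood to the same side and 0.376% of all probes stood to opposite sides. With 1 array a group the difference between the times was not tested. The values below are the 48 h difference minus the 3 h difference, in log2.

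The single probe higher at 48 h and lower at 3 h was A_30_P01017577 on chr4:124127144-124334840, at 5.25, from -2.97 at 3 h to 2.28 at 48 h. The other 13 were higher than the control of the same time at 3 h and lower at 48 h. A_30_P01032256 on chr8:87504644-87513694 was at -4.76, from 3.36 to -1.40. A_30_P01024256 on chr16:23992037-24001037 was at -4.49, and A_30_P01028872 on chr16:43635730-43639104 at -4.47. The next were A_30_P01021038 at -3.70, A_30_P01026788 at -3.14, A_30_P01021257 at -3.07 and A_30_P01033069 at -2.89.

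Both tested probes of chr9:121256738-121257487 were among them, A_30_P01027700 at -2.66 and A_30_P01019613 at -2.47. A_30_P01031348 on chr3:51804655-51805883 was at -2.61. The remaining values were -2.32 for A_30_P01024163, -2.31 for A_30_P01025737 and -2.09 for A_30_P01030648. Every tested probe of that chr9 name was also higher on the 48 h control than on the 3 h control, by 1.58 to 1.82. The same held for chr3:51804655-51805883 (1.18 to 1.55) and chr16:43635730-43639104 (1.23 to 2.30). In the run that holds A_30_P01024256, the 48 h control stood at most 0.89 above the 3 h control. There 1 of 10 tested probes was 2-fold higher at 3 h of the high dose, and the median difference was -0.51. In the run of A_30_P01026788 it was 1 of 20, with a median of -0.18. In the run of A_30_P01028872 it was 2 of 22, with a median of 0.72. These 3 h rises were thus those of few spots in their runs. The part of a low 3 h control in these differences was not tested.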

How the results depend on the processing

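Over 274 differences of named probes and 70 run medians, each under 5 other scalings or signals, 0 were counted as reversed. A change of sign was counted only where the main difference was 2-fold or more, so smaller run medians could not count. Most probes were named for large differences, which leaves little room for a reversal, so this count is a weak check. Median centring, the other percentile and the value table move all differences of a comparison by nearly the same small amount. These settings could therefore hardly reverse a difference of 2-fold. Of the 1370 probe values 213 moved by more than the extraction error, 212 of them with normexp background correction, and of the 350 run values 49 moved, 48 with normexp. In the order high dose at 3 h, low dose, high against low dose, high dose at 48 h, controls, and high dose arrays, the 2-fold counts were as follows. With normexp they were 54, 36, 38, 371, 54 and 242. Without the filter on dim probes they were 1536, 1161, 1603, 3235, 1507 and 2668. With the software's weaker mark of a positive and significant signal they were 873, 626, 834, 2194, 936 and 1732. With 1 probe per interval and strand, fewer probes enter, and they were 74, 45, 48, 450, 93 and 283. Against the 48 h control in place of the 3 h control they were 279 for the high dose and 236 for the low dose at 3 h. In limma, 251 and 140 interval probes passed for high dose and time without the filter, and 4 for high dose with normexp. The weaker mark gave detected shares of 61.8%, 68.8%, 69.6%, 69.2% and 63.3% in array order. The cause of these shifts was not tested. No paired analysis was possible because each group had 1 array. Signals near background limit the dim intervals, and 1 array a group limits them all.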
